A study of Sus scrofa with 6 samples.

Results

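COL1A2 encodes the alpha 2 chain of type I collagen, the main fibrillar collagen of bone, skin and tendon. The chain is joined to a pair of alpha 1 chains in fibroblasts and osteoblasts and is secreted as a triple helix. The data examined here are the CpG sites of this gene in the pig: every CpG that the deposited tables assign to a COL1A2 promoter, exon, intron, untranslated region (UTR) or near downstream stretch. This gave 250 CpGs of the 14116 in the tables, and all 250 had a read. They comprised 43 promoter CpGs, 7 CpGs of the 5′ UTR, 76 coding exon CpGs, 119 intron CpGs, 2 CpGs of the 3′ UTR and 3 downstream CpGs. COL1A2 was the only collagen gene in the tables.

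DNA methylation in vertebrates is mostly carried by the cytosines of CpG dinucleotides. Starts of genes that are dense in CpGs are commonly free of methylation, whereas the sparser CpGs of gene bodies are commonly methylated. Between a free start and a methylated body lies an edge where cells or alleles can differ. Methylation of the COL1A2 promoter has been described in human tumour cells with low expression of the gene.

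Whole-genome bisulfite sequencing was done on 3 parthenotes and 3 control embryos, all whole embryos at embryonic day 21 from a Landrace, Yorkshire and Duroc cross. The parthenotes were started by electrical activation of eggs, without sperm, so that both of their genomes were maternal, and they developed in surrogate gilts. The controls are labelled as untreated, and how they were conceived is not given in the labels. The study asked where methylation depends on the parent of origin: a stretch methylated on the maternal copy alone would read higher in parthenotes, and one methylated on the paternal copy alone would read lower.

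The labels do not say whether embryos of a group share a litter. Apart from Fisher's test on summed reads, p-values here set differences against the spread between these 6 embryos. That spread may be smaller than the one between litters. A whole embryo is a mixture of cell types: a share of methylated cells, of methylated alleles or of cell types cannot be told apart in these levels. The tables held 380163 to 406443 reads per embryo, and COL1A2 CpGs 6627 to 7096 of them, the median CpG having 27 to 30. A level is the percentage of reads with C among reads with C or T, both strands and all CpGs of a stretch summed. Over all CpGs of the tables control 1 was lowest, at 74.7%, and the other 5 embryos lay between 83.0% and 85.5%.

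The gene lies on the plus strand of chromosome 9 from 74174484 to 74210407 in Sscrofa11.1, a length of 35924 bp. BET1, a protein of vesicle transport to the Golgi, ends 381831 bp before it, and CASD1, which acetylates sialic acids, starts 66126 bp after it. PEG10, a gene of retrotransposon origin that mammals express from the paternal copy, starts 263714 bp past the end of COL1A2. Distances below are counted from the annotated start, with a minus sign upstream.

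COL1A2 began in a nearly unmethylated, CpG-dense stretch of 1450 bp, then passed through an edge in the first introns where the level of single embryos ranged from 51.1 to 85.0%, and was highly methylated over the remaining body. Neither the promoter nor the exons nor the introns differed between parthenotes and controls beyond the spread between embryos. Beyond the first 5000 bp, exon CpGs read higher than intron CpGs in all 6 embryos, by 2.37 ± 1.19 percentage points (SD, n = 6).

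The promoter CpGs, as annotated by the authors, span −1629 to −12 and held the lowest depth of the gene. The promoter level was 23.5%, 30.1% and 26.6% in parthenotes 1, 2 and 3, against 20.1%, 37.5% and 26.5% in controls 1, 2 and 3. The 95% Wilson intervals, which cover counting error only, ran from 17.2 to 23.4% for the lowest embryo and from 33.1 to 42.2% for the highest, both controls. All 3 parthenotes lay inside the range of the controls. The means were 26.7% ± 3.33 in parthenotes and 28.1% ± 8.80 in controls (SD, n = 3 each), a difference of −1.31 percentage points (edgeR adjusted p = 0.926, 2-sided exact permutation p = 0.9, where 3 against 3 embryos allow no p below 0.1).

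This average joined unlike stretches, which bins of 500 bp separated. Between −1500 and −1000 the level was 90.4%, 81.1% and 85.5% in parthenotes and 67.5%, 87.6% and 82.6% in controls, over 5 CpGs. From −1000 to −500 it was 19.4%, 27.9% and 24.2% in parthenotes and 13.8%, 29.3% and 21.2% in controls, over 13 CpGs. The groups overlapped in both bins, and control 1 was lowest in each.

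Nearest to the start the DNA was all but free of methylation. The bin from −500 to the start held 23 CpGs, at which methylated reads numbered 0 of 213, 1 of 188 and 1 of 308 in the parthenotes and 1 of 289, 0 of 150 and 2 of 291 in the controls. The 0 of 213 reads in parthenote 1 allow a level of up to 1.41%, and the 0 of 150 in control 2 up to 2.00%. All embryos lay between 0 and 0.69%, and a difference between groups within that range was not detectable at this depth. The 7 CpGs of the 5′ UTR, which begin 14 bp past the start, stood at 0.71%, 2.06% and 2.13% in parthenotes and 0.74%, 1.63% and 0.58% in controls, again with overlapping groups.

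**Figure D1:**
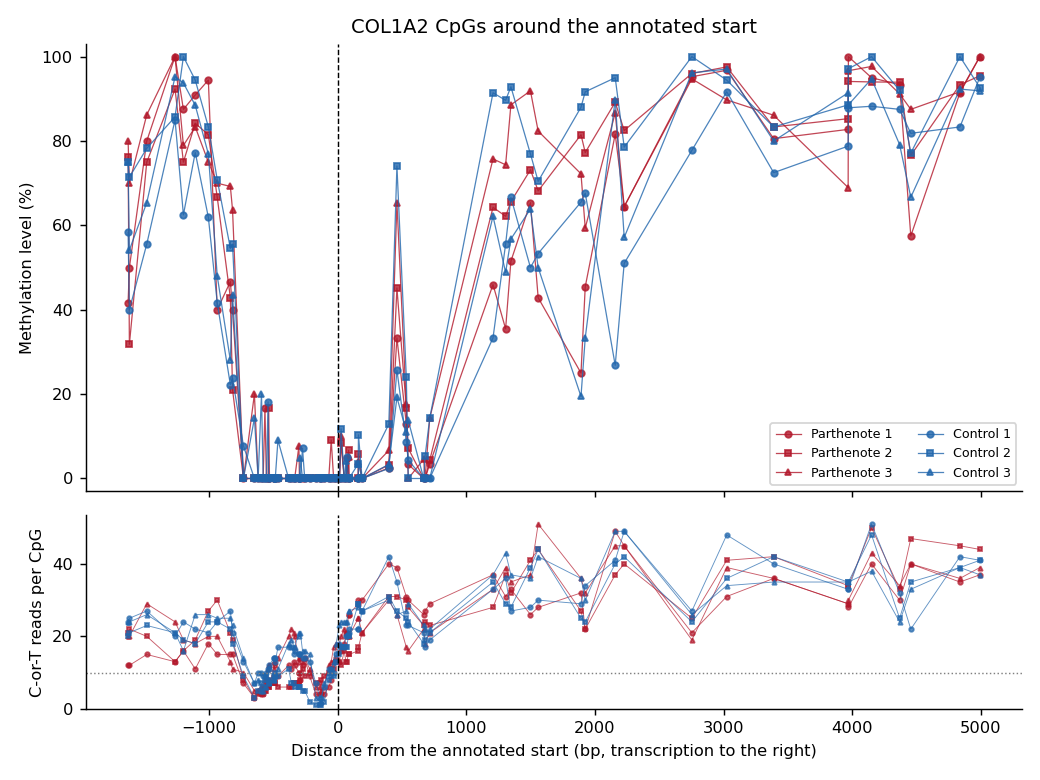
Methylation level (upper panel) and reads (lower panel, dotted line at 10 reads) of each COL1A2 CpG by distance from the start in bp, with parthenotes in red, controls in blue and the start as a dashed line. Levels are mostly at 0 from −500 to the start, where reads are few, peak at 461 bp, and spread widely past 1208 bp, as at 1892 bp, where parthenotes span 25 to 81.5% and controls 19.4 to 88.0%.

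Taken by values already seen, the low core ran from −732 to 716 bp and held 50 CpGs, 48 of them with a mean level under 10% over the 6 embryos. Its level was 3.04%, 4.82% and 4.24% in parthenotes and 2.32%, 6.76% and 2.38% in controls. CpGs stood at 34.5 per kb in the core, against 5.43 per kb in the body past 5000 bp. Because reads were few there, with a median per CpG of 8.5 to 16.5, only 18 of the 50 CpGs had the 10 reads in every embryo that the single-site test needs. Of the 43 promoter CpGs 11 had them.

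A single CpG broke the low core. At 461 bp (position 74174945, intronic) the level was 33.3%, 45.2% and 65.4% in parthenotes, against 25.7%, 74.1% and 19.2% in controls, with 26 to 39 reads per embryo. Parthenote values lay inside the control range, and the CpG carried no sign of a sequence variant on the opposite strand. Without it the core stood at 1.32%, 2.55% and 2.06% in parthenotes and 1.21%, 3.54% and 1.81% in controls. Control 2 and parthenote 3 were highest at this CpG, as they were at the edge farther in.

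The edge was set in each embryo as the first run of 5 CpGs whose mean reached 50%. Its position is that of the first CpG of the run, which can itself be low. On the downstream side it lay at 1499, 716 and 680 bp in parthenotes 1, 2 and 3, against 1208, 680 and 1208 bp in controls 1, 2 and 3. Parthenote 1 had the farthest edge, and parthenote 3 shared the nearest with control 2. The CpG at 680 bp itself read 0% in parthenote 3 and 5.26% in control 2, and that at 716 bp read 4.35% in parthenote 2. No CpG lay between 716 and 1208 bp, and the runs that began at 680 or 716 bp reached across this gap. The means were 965 ± 463 bp in parthenotes and 1032 ± 305 bp in controls (SD, n = 3 each), a difference of −67 bp (2-sided exact permutation p = 1). On the upstream side the edge lay 817, 817 and 732 bp before the start in parthenotes and 834, 732 and 817 bp in controls (2-sided exact permutation p = 1). By this measure the low stretch was 1412 to 2316 bp wide in parthenotes and 1412 to 2042 bp in controls.

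Between 1208 and 2228 bp lay 9 intron CpGs with intermediate levels, a stretch also chosen after values were seen and therefore given without a test. Their summed level was 53.1%, 73.7% and 77.6% in parthenotes 1, 2 and 3, against 51.1%, 85.0% and 55.2% in controls 1, 2 and 3. Wilson intervals were 47.5 to 58.7% for parthenote 1 and 73.0 to 81.7% for parthenote 3. In controls they were 45.6 to 56.7% for control 1 and 80.5 to 88.5% for control 2. The intervals of each pair lay apart, although they are likely too narrow, and the levels of the groups overlapped. Control 2 read above control 3 at 9 of the 9 CpGs, and parthenote 1 below both other parthenotes at 8 of the 9. CpGs covered by the same reads are not separate observations.

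The CpG at 1892 bp (intronic) had the widest spread among them that was free of a variant sign. It read 25%, 81.5% and 72.2% in parthenotes and 65.5%, 88.0% and 19.4% in controls, with 25 to 36 reads. Parthenote 1 and control 3 stood low, and the other 4 embryos were at 65.5% or above. The CpG at 2158 bp read 81.6%, 89.2% and 86.7% in parthenotes and 26.8%, 95% and 89.8% in controls, and in control 1 the opposite strand held A in 40.0% of 20 reads, a sign of a C-to-T sequence variant. Without this CpG the edge level was 47.6%, 71.6% and 76.3% in parthenotes and 54.9%, 83.5% and 49.7% in controls.

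Past the edge all embryos came together. From 2754 to 4993 bp the level over 10 CpGs was 88.4%, 90.6% and 90.7% in parthenotes and 85.1%, 92.5% and 88.1% in controls. Upstream of the core, from −1629 to −817, the 10 CpGs of the shoulder read 67.6%, 63.9% and 79.4% in parthenotes and 51.9%, 76.7% and 65.7% in controls. Both stretches had overlapping groups.

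**Figure D2:**
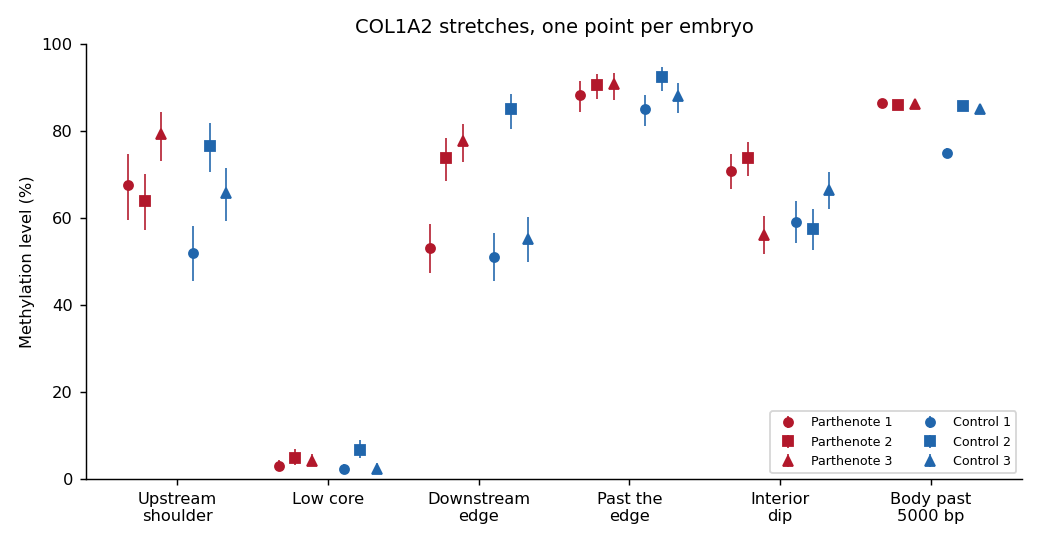
Methylation level of 6 COL1A2 stretches, one point per embryo with its 95% Wilson interval, parthenotes in red left of controls in blue. Embryos differ most at the downstream edge (51.1 to 85.0%) and the groups overlap in each stretch except the body past 5000 bp, where control 1 is lowest at 74.98%.

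Fixed windows of 500 bp gave the same picture at one scale. Of 72 windows with a COL1A2 CpG, 39 had the 3 CpGs and 30 reads in every embryo that the test needs. EdgeR called 0 of the 39, against 0.314% of the 1911 windows of the tables (6), and limma and DESeq2 also called 0. Fisher's exact test on the summed reads of each group, which takes no account of the spread between embryos, called 7, against 16.8% of all windows. In the 8 tested windows from −2000 to 5000 bp the smallest adjusted p was 0.995 (edgeR). The window over the start (74174000 to 74174499) averaged 0.313% in parthenotes and 0.370% in controls, and the next one (74174500 to 74174999) averaged 7.76% in parthenotes and 6.29% in controls. The window at 74192000 was the single one with an unadjusted edgeR p under 0.05 (adjusted p = 0.995), at 98.4%, 94.3% and 88.1% in parthenotes and 83.3%, 80.1% and 87.7% in controls.

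At single CpGs, 216 of the 250 could be tested. EdgeR called 0, where it called 0.429% of the 12359 CpGs tested in the tables (53). An unadjusted p under 0.05 was found at 9 of the 216 CpGs, all higher in parthenotes, a share of 4.17%, against 3.29% of all CpGs tested. Limma and DESeq2 called 0 as well, and Fisher's test on the summed reads called 8, against 2.9% of all. Levels were higher in parthenotes at 150 CpGs and lower at 61. The 150 are 69.4% of the CpGs, against 65.95% of all tested, and the median difference was 2.94 percentage points over COL1A2 and 2.00 over all CpGs tested. All 3 parthenotes lay above all 3 controls at 14 CpGs, against 6.04% of the CpGs tested in the tables, and below at 0, against 1.47%. The 14 CpGs are 6.48% of the 216.

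The intron CpG at 74199298, 24814 bp from the start, had the smallest unadjusted p (0.0054, edgeR adjusted p = 0.562). It read 87.1%, 88.4% and 90.3% in parthenotes 1, 2 and 3, against 64.5%, 64.3% and 48.1% in controls 1, 2 and 3, on 27 to 43 reads. The groups did not overlap, with a difference of 29.6 percentage points. With the authors' corrected totals, which scale for opposite-strand A, it was 17.4 (unadjusted edgeR p = 0.068, adjusted p = 1, over alternatives 0.000297 to 1). Opposite-strand A made up 37.5% of 8 reads in control 2 and 33.3% of 12 in control 3, and none in the other 4 embryos. A sequence variant carried by those controls and a methylation difference were not separated by a test.

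The next smallest p-values went to the intron CpG at 74183733, which read 100%, 94.1% and 93.8% in parthenotes and 41.7%, 95.8% and 84.0% in controls. Control 1 stood alone there, and its opposite strand held A in 64.3% of 14 reads. The coding exon CpG at 74191727 read 100%, 89.7% and 94.4% in parthenotes and 84.6%, 73.0% and 72.4% in controls, with no overlap and no variant sign. The coding exon CpG at 74192719 read 95.1%, 97.0% and 97.5% in parthenotes and 64.5%, 95.5% and 83.9% in controls. The intron CpG at 74188744 read 96.6%, 94.4% and 97.1% in parthenotes and 66.7%, 88.9% and 89.7% in controls. Control 1 was lowest at these last CpGs, and control 2 overlapped the parthenotes at the exonic one. Each of the 4 had an adjusted p of 1 (edgeR).

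By feature, the 85 exon CpGs, UTRs included, stood at 78.4%, 82.0% and 79.9% in parthenotes and 70.2%, 80.6% and 77.8% in controls. Control 1 was lowest, control 3 also lay below all parthenotes, and control 2 lay within the parthenote range. The means were 80.1% ± 1.82 in parthenotes and 76.2% ± 5.35 in controls (SD, n = 3 each), 3.88 percentage points apart (edgeR adjusted p = 0.718, 2-sided exact permutation p = 0.4). The 119 intron CpGs stood at 79.2%, 81.5% and 82.6% in parthenotes and 69.7%, 82.2% and 77.5% in controls. Their means were 81.1% ± 1.70 in parthenotes and 76.5% ± 6.34 in controls, 4.59 percentage points apart (edgeR adjusted p = 0.718, 2-sided exact permutation p = 0.3). Among gene features of the tables edgeR called 6.25% (3 of 48), none of them in COL1A2. Fisher's test on the summed reads called the exons (adjusted p = 7.74e-08) and the introns (adjusted p = 1.89e-17), and 72.9% of all features, where the other alternatives gave adjusted p of up to 0.904.

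Over the body past 5000 bp, 168 CpGs, the level was 86.5%, 86.1% and 86.2% in parthenotes, against 74.98%, 85.8% and 85.0% in controls. The parthenotes lay within 1 percentage point of each other and all above the controls, and controls 2 and 3 were close below them. The difference was 4.29 percentage points (2-sided exact permutation p = 0.1, the smallest possible), a comparison added after the values were seen. Without control 1 it was 0.80. Without the CpGs of the interior dip described below it was 4.29 (2-sided exact permutation p = 0.3), so the groups no longer stood apart. Relative to each embryo's own level outside COL1A2 it was 1.13 (2-sided exact permutation p = 0.3), and the part that the lower level of control 1 over the whole interval plays was not tested further.

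Along the body, 5 kb bins were lowest at one place in every embryo. From 5 to 20 kb and from 25 kb to the end, bin levels were 85.3 to 95.9% in parthenotes, 79.9 to 93.0% in controls 2 and 3, and 72.9 to 87.5% in control 1. The bin from 20 to 25 kb fell below its neighbours, with 77.5%, 79.3% and 71.8% in parthenotes and 65.8%, 72.4% and 75.1% in controls. In controls 1 and 3 the bin before it, from 15 to 20 kb, was already low, at 72.9% and 79.9%, whereas the parthenotes read 86.9%, 85.8% and 89.5% and control 2 87.1%.

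Within that bin a dip of 15 CpGs lay between 21417 and 23266 bp, a stretch again chosen after values were seen. It read 70.9%, 73.8% and 56.2% in parthenotes, against 59.2%, 57.4% and 66.5% in controls. Parthenote 3 was lowest of all and parthenote 2 highest. The stretch was not evenly low: 2 CpGs inside it (74196500 to 74196999) read 86.7%, 87.5% and 80% in parthenotes and 53.0%, 90.7% and 87.7% in controls. The 25 CpGs on the flanks of the dip stood 16.4, 14.0 and 34.5 percentage points above it in parthenotes and 14.0, 31.9 and 19.6 in controls. The depth of the dip was thus unequal. As the dip was chosen by its low levels, its place below the flanks in 6 of 6 embryos is not a test of it. One CpG inside the dip, at 22940 bp, read 92.9%, 0% and 0% in parthenotes and 0%, 42.9% and 0% in controls, and 4 of the 6 embryos had no call on its minus strand. These 4 were the embryos at 0%, and their levels came from the plus strand alone. Opposite that cytosine they had 10 to 21 reads, all with G. Whether a sequence variant removes the CpG in them was not tested. This CpG had too few reads for the single-site test, and the dip without it read 69.6%, 75.6% and 58.4% in parthenotes and 60.1%, 58.2% and 68.7% in controls.

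**Figure D3:**
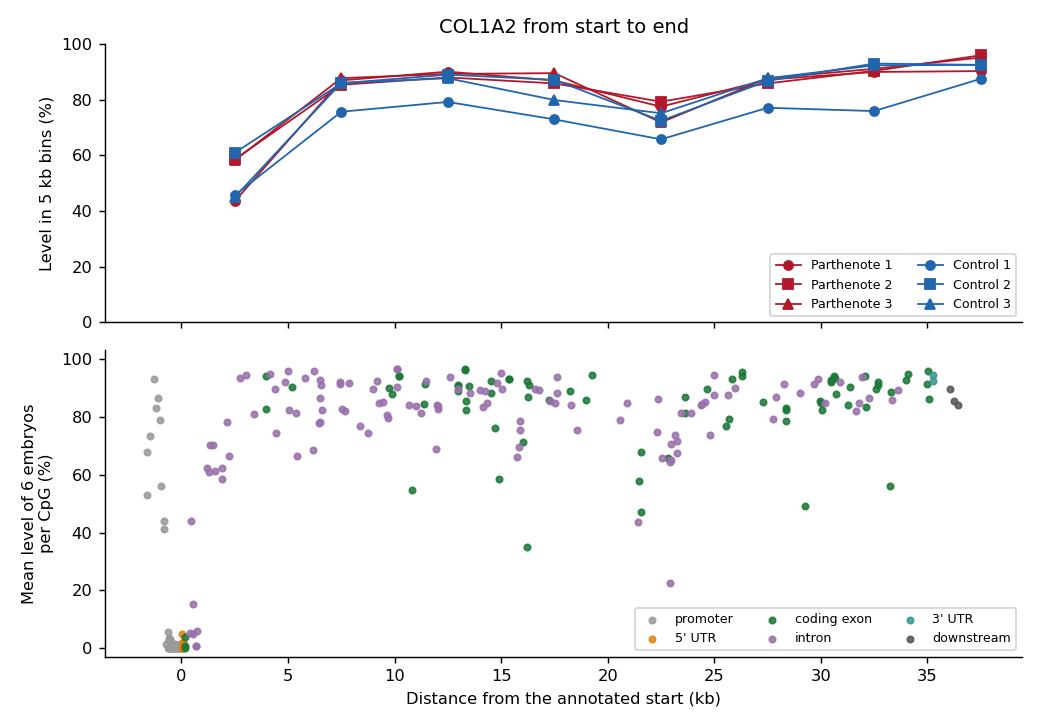
COL1A2 from start to end, by distance from the start in kb: the upper panel gives the level of each embryo in 5 kb bins, the lower one the mean of 6 embryos at each CpG by class. Levels climb from the start into the body, and each embryo dips in the bin from 20 to 25 kb (71.8 to 79.3% in parthenotes, 65.8 to 75.1% in controls).

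Of 166 tested body CpGs, 128 had a mean of at least 80%, a share of 77.1%, against 76.2% of all CpGs tested. A mean under 65% with no embryo above 80% was found at 7 body CpGs, 5 of them in coding exons and 4 of them inside the dip. The share over all CpGs tested is not given here, so the count does not set COL1A2 apart. The body holds 73 exon and 95 intron CpGs, and the dip was itself chosen by low levels, so no enrichment was measured. The coding exon CpG at 16204 bp was the lowest, at 6.67%, 58.3% and 58.8% in parthenotes and 31.3%, 33.3% and 21.7% in controls, on 12 to 23 reads. The coding exon CpG at 21542 bp was the most even, at 46.2%, 41.9% and 42.4% in parthenotes and 48.3%, 44.8% and 60.0% in controls. The groups overlapped at both, and none of the 7 carried a variant sign.

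Exons read above introns in the body. Past 5000 bp the 73 exon CpGs stood at 86.6%, 87.3% and 87.4% in parthenotes and 76.8%, 87.9% and 86.9% in controls. The 95 intron CpGs stood at 86.3%, 85.3% and 85.4% in parthenotes and 73.7%, 84.4% and 83.7% in controls. Within each embryo exons were higher, by 0.29, 2.00 and 2.09 percentage points in parthenotes and by 3.10, 3.50 and 3.23 in controls. The mean excess was 2.37 ± 1.19 (SD, n = 6), with exons higher in 6 of 6 embryos. The 2-sided exact sign-flip permutation p was 0.03125, the smallest that 6 embryos allow. All embryos share these CpGs, so this p covers the spread between embryos and not that between CpGs. Counted from the start, where low exons and introns enter, the difference was −0.63 and exons were higher in 3 of 6 embryos (2-sided exact sign-flip permutation p = 0.375).

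The excess of exons over introns was 1.46 ± 1.01 percentage points in parthenotes and 3.28 ± 0.20 in controls (SD, n = 3 each). The 3 parthenotes lay below the 3 controls, by 1.82 on average (2-sided exact permutation p = 0.1, the smallest possible), and parthenote 1 had the least. Without the CpGs of the dip the group difference was −1.08 (2-sided exact permutation p = 0.2), so the groups no longer stood apart, and without CpGs with a variant sign it was −1.18 (2-sided exact permutation p = 0.1). Among the 9 other genes with at least 20 exon and 20 intron CpGs past 5000 bp, exons were higher in 6 of 6 embryos in 3: CALCR, the calcitonin receptor (4.91 percentage points), PON1, a serum paraoxonase (4.10), and SGCE, epsilon-sarcoglycan (7.83). TFPI2, a protease inhibitor, had lower exons in 6 of 6 embryos, with a mean of −24.1 percentage points. Its exons averaged 32.6% and its introns 56.7%, each the lowest among these genes, so its stretch is unlike the highly methylated COL1A2 body.

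**Figure D4:**
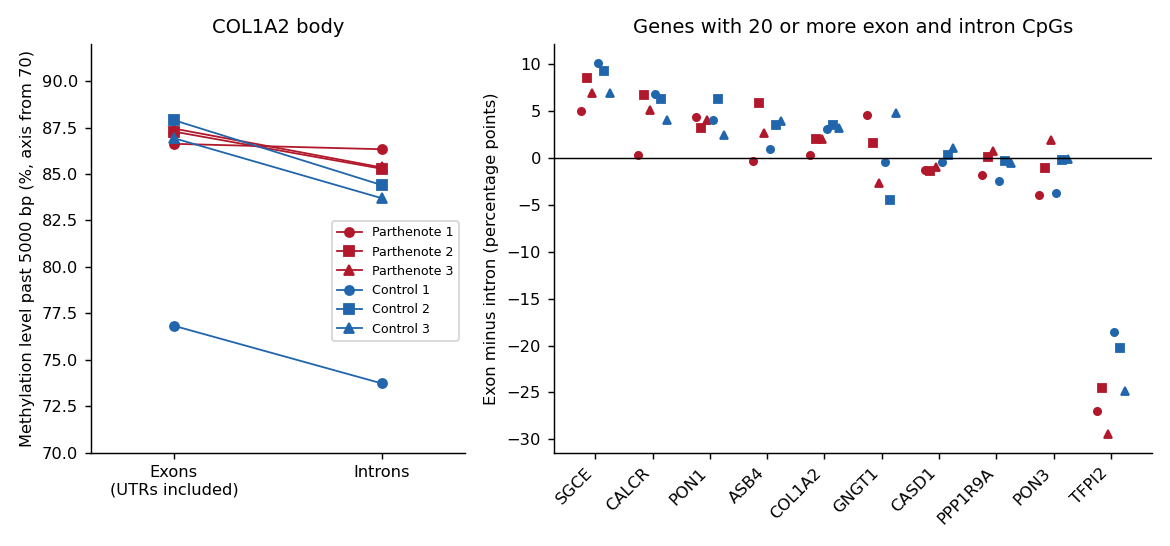
Exon and intron levels of the COL1A2 body past 5000 bp in each embryo, and the exon minus intron difference in COL1A2 beside other genes of the tables. Exons of COL1A2 are 0.29 to 2.09 percentage points above introns in parthenotes and 3.10 to 3.50 in controls.

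At its end the gene stayed methylated. The 2 CpGs of the 3′ UTR read 94.9%, 92.3% and 94.1% in parthenotes and 83.9%, 96.5% and 98.2% in controls. The 3 downstream CpGs read 86.4%, 88.9% and 90.2% in parthenotes and 69.6%, 90.6% and 90.4% in controls. Control 1 was lowest and the other controls highest in both.

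Against the rest of the interval the place of the COL1A2 body depended on the measure. By the median over CpGs with 10 reads in every embryo it stood lower, at 86.3%, against 89.2% over all CpGs tested. In summed reads, other CpGs in genes, their low starts included, read 83.2%, 83.6% and 85.0% in parthenotes and 74.7%, 84.9% and 82.7% in controls. The COL1A2 body, without its own low start, was above them in 6 of 6 embryos, by 0.26 to 3.23 percentage points (2-sided exact sign-flip permutation p = 0.03125). Leaving out low starts on one side only favours the COL1A2 body, so this p does not test whether it is more methylated than other bodies. Measured alike from −1000 to 500 bp, the COL1A2 promoter averaged 7.85% in parthenotes and 7.62% in controls. By the same measure BET1 averaged 19.8% in parthenotes and 21.9% in controls, and CASD1 13.0% in parthenotes and 12.9% in controls. Promoters under 25% in both groups numbered 8 of 17, and the other 7 had group means between 0.963 and 21.9%.

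The profile of mean levels from −2000 to 5000 bp in 500 bp bins had the smallest mean absolute difference to that of PDK4, a kinase that restrains pyruvate dehydrogenase, at 7.56 percentage points over 4 shared bins and 6 embryos. GNGT1, a G protein subunit of rod photoreceptors, followed with 12.3 over 8 bins, and PON2, of the paraoxonase family, with 15.7 over 6 bins. These means rest on different bins, and those of PDK4 lie between −1500 and 500 bp, with no bin of the edge or body. In these 4 bins the means were 82.4%, 22.6%, 0.315% and 6.60% for COL1A2, 92.6%, 38.2%, 1.74% and 3.48% for PDK4, and 85.0%, 23.5%, 0.579% and 0.426% for GNGT1, so GNGT1 was nearer than PDK4 in 3 of them. In the bin from 1000 to 1500 bp COL1A2 averaged 65.6% and GNGT1 7.11%.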

How the data were processed

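Per the file headers, the authors deposited for each CpG cytosine of 1 chromosome 9 interval the count of reads with C, the count with C or T, and opposite-strand counts of G and of G or A. The deposited expected count scales the C-or-T count by the opposite-strand share of G, and the methylation fraction with its interval, also deposited, divides the C count by it. In a check of 165447 values, 0 differed from that product by more than 0.0051. The submitters' processing notes name BSMAP 2.87, a bisulfite read mapper, and the build Sscrofa11.1. Trimming, duplicate removal and conversion rate are not given in the sources used here.

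Raw counts were used, strands summed. CpGs entered the single-site test with 10 reads in every embryo, windows of 500 bp and gene features with 3 CpGs and 30 reads. Methylated and unmethylated counts were compared by edgeR 4.0.16 (quasi-likelihood test, R 4.3.3) over the whole tables, with a coverage term per embryo, and adjusted by Benjamini-Hochberg within each kind of unit, called under 0.05. Single values were compared by exact permutation over embryos. Reads carry no molecular identifiers, and a read over several CpGs counts at each, so Wilson intervals and limits from a count of 0 (3 reads) are likely too narrow. A variant sign was at least 20% A in 10 or more opposite-strand reads of any embryo, or a strand with no call. RefSeq's annotation of the build gave gene positions. Alternatives were limma 3.58.1, DESeq2 1.42.0, Fisher's exact test, other depth, window, promoter and edge settings, corrected totals, a replicate block and leaving out each embryo. Fits were tested on simulated data. Python 3.11.15, pandas 2.3.3, numpy 2.4.6, scipy 1.17.1 and matplotlib 3.10.9 were used.

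The gene, its CpG classes and the tests were chosen with earlier results of these data known. Named CpGs are those that edgeR called or, failing that, the 5 with the smallest p. Genes set beside COL1A2 are its neighbours in the tables and the 3 nearest profiles. CpGs singled out at 461, 1892, 2158, 22940, 16204 and 21542 bp, the 4 stretches around the start and the dip were chosen after their values were seen.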

Additional observations from a re-analysis of the deposited data

How the results depend on the processing

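No alternative that keeps embryos as replicates called a COL1A2 CpG or window. Fisher's exact test on the summed reads of each group called 8 CpGs and 7 windows and put the unchanged exon and intron differences of 3.88 and 4.59 percentage points past the threshold. Leaving out each embryo gave 0 called CpGs and windows, exon differences of 0.90 to 6.07, intron differences of 1.20 to 7.47 and body differences of 0.80 to 6.24, the lowest each time without control 1. The promoter difference of −1.31 was 4.11 over the 11 CpGs with 10 reads in every embryo, and 3.89 as an unweighted mean over the same 11. Of these 11 CpGs, 10 lie in the upstream shoulder, so both values mostly describe the shoulder and not the low start. The promoter difference was 0.23 from 1000 bp upstream to 500 bp downstream and 0.25 from 250 bp upstream to 50 bp downstream. With each embryo left out it was −5.27 to 3.43. It was 0.33 without parthenote 1 and 3.43 without control 2, and the cause was not tested.

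The upstream edge difference of −5.67 bp became −76.0 bp with 9 CpGs averaged, −596 bp at 75% and 76.7 bp with 10 reads required. The downstream one of −67 bp became −176 bp with 9 CpGs averaged, −496 bp at 75% and 32.7 bp with 3 CpGs averaged. Leaving out each embryo gave −36.8 to 22.7 bp upstream and −334 to 75.5 bp downstream. The body difference between exons and introns was −0.63 over the whole transcribed stretch and 1.77 without the interior dip. With each embryo left out it was 2.15 to 2.79, where 5 embryos allow no p below 0.0625, and its group difference −2.13 to −1.23. That group difference was −1.08 without the dip and −0.71 over the whole transcribed stretch.

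Replicate numbers did not pair the embryos: deviations of same-numbered embryos correlated at 0.0876, 0.0716 and −0.0894. With the replicate block edgeR called 0 COL1A2 CpGs and windows, and the promoter, exon and intron differences, which a block in the fit cannot move, had adjusted p of 0.8999, 0.584 and 0.584 (edgeR).

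Depth limits the start most: 34 CpGs, 32 of them in the promoter, could not be tested. With 3 embryos a group, an exact permutation cannot give a p below 0.1. The share of unconverted cytosines is unknown, so levels near 0 may be slightly high.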

Other observations

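The pattern that a maternally methylated site would give, a control mean of 35 to 65% with a parthenote mean of at least 80%, was met at 3 COL1A2 CpGs, at 74189183, 74197618 and 74199298, against 149 of the 12359 CpGs tested in the tables. At 74189183 controls 1, 2 and 3 read 25%, 81.5% and 82.6%, so that the pattern there rests on control 1 alone. At 74197618 they read 57.7%, 47.1% and 83.8%, the last within the parthenote range of 80.6 to 88.2%. The CpG at 74199298 carried opposite-strand A in controls 2 and 3.

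A sign of a sequence variant was found at 28 of the 250 CpGs. In 24 the criterion was met only by a strand with no call, and 22 of those 24 lay in the promoter, where reads were fewest. The intron CpG at 10992 bp, one of the 24, also had opposite-strand A, under the minimum of 10 reads. The A made up 2 of 3, 1 of 4 and 2 of 5 reads in controls 1, 2 and 3, and parthenotes 2 and 3 had none. The remaining 4 of the 28, with opposite-strand A in 10 or more reads, were all intronic.

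The plus and minus strands of the body stood at 85.3% and 87.7%, 86.2% and 86.0%, and 85.2% and 87.2% in parthenotes 1, 2 and 3, and at 85.5% and 86.2%, and 83.8% and 86.3%, in controls 2 and 3. Control 1 had 77.3% on the plus strand and 72.7% on the minus strand. The minus strand was the lower one in control 1 and, by under 1 percentage point, in parthenote 2.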
